A study of Bos taurus with 44 samples.

Results

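IGHM, JCHAIN and CD72 are the B cell and immunoglobulin genes described here, and they are 3 of the 141 named genes on a bovine immune and endocrine cDNA array. They were chosen by name, as the genes of spots whose platform annotation gives the single symbol IGHM, JCHAIN or CD72. Each gene had 8 spots, which makes 24 of 1680 spots in all. The annotation gives Entrez gene 404057 for IGHM, listed in the bovine reference table as an immunoglobulin constant region. It gives Entrez gene 280821 for JCHAIN and 783725 for CD72, both listed as protein coding.

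B cells carry membrane IgM as their antigen receptor, and IGHM encodes the constant part of the IgM heavy chain in its membrane and secreted forms. After antigen and help from T cells, some B cells become antibody-secreting cells, which release large amounts of immunoglobulin and make the joining chain JCHAIN. The joining chain links IgM and IgA units into polymers and is needed for their transport across epithelia. CD72 is a surface lectin of B cells whose cytoplasmic tail recruits a phosphatase and dampens signals from the antigen receptor.

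The samples were blood mononuclear cells of female Holstein cows, isolated on a Percoll gradient 6 days after immunization with antigens meant to raise antibody and cell-mediated responses. The labels class each cow as high or low for antibody response (Ab) or cell-mediated response (DTH), in 4 groups of 3 cows with 1 cow in both high groups. That animal is called the shared cow. The 44 two-colour arrays each set amplified RNA of a cow against an RNA standard common to all arrays and made from blood mononuclear cells too, with the dyes Alexa647 and Alexa555 swapped between arrays.

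All groups had the same immunization and no group was left without it, so the values contain no unimmunized baseline. The labels name neither the antigens nor the ages of the cows, and they give no shares of cell types. Cows are named only by a number within a group and were taken as 11 different animals: the shared cow, 2 further high-Ab, 2 further high-DTH, 3 low-Ab and 3 low-DTH cows. Most had 4 arrays, high-DTH cow 2 had 5 and low-DTH cow 3 had 3. The labels speak of biological replicates, so cows were the replicates and arrays of a cow were technical repeats.

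Values are deposited log ratios, read as log2 and as cow over standard, which is likely but not stated. A value of 1 is then a doubling against the standard, and under the other convention every direction given here would be the opposite. For 3 arrays the sign is not settled, namely 2 arrays of low-Ab cow 1 (its arrays 1 and 2) and 1 array of low-DTH cow 3 (its array 3). Their mean correlations with arrays of other cows were at most −0.20, and the lowest such mean among the other arrays was −0.01. They were kept as deposited, and the group comparisons are also given with them turned. A bacterial control gene, vapA, had a mean log2 ratio of 0.03 ± 0.09 (SD, n = 11 cows). Spot intensities were not analysed here, so the signal over background is unknown and a ratio does not show how strongly a gene was expressed. In bulk samples of this kind, fewer B cells and less RNA of these genes per cell cannot be told apart.

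The identity of the cells could be checked only in part. Of 7 listed B cell markers, IGHM and CD72 were the 2 measured, and of 4 plasma cell markers JCHAIN was the 1 measured. The other listed markers were not analysed here. A ratio to a standard of the same cell type gives no absolute level for the measured ones.

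IGHM varied widely between cows, JCHAIN was slightly lower in most high than in most low responders, and CD72 lay near the standard. The SD of the 11 cow values of IGHM was 0.74 on the log2 scale, the second largest among the 141 named genes, for which the median was 0.15. That of JCHAIN was 0.21, at rank 44, and that of CD72 was 0.15, at rank 71. No member passed a Benjamini-Hochberg adjusted p of 0.05 in limma in any of 5 comparisons. A lower JCHAIN ratio in the 5 high cows than in the 6 low cows reached an exact permutation p of 0.0455 without adjustment, and that p rose to 0.232 with the 3 arrays turned.

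IGHM was below the standard in the shared cow at −0.88, in high-Ab cow 3 at −0.57 and in high-DTH cow 2 at −0.63. The other high cows lay above it, high-Ab cow 2 at 0.07 and high-DTH cow 3 at 0.48. Among the low-Ab cows, cows 1, 2 and 3 had −0.11, −1.30 and 0.02. Low-DTH cows 1, 2 and 3 had −0.21, 1.50 and −0.28. The lowest and the highest cow were thus both low responders, low-Ab cow 2 and low-DTH cow 2, and the 5 high cows lay between them. The gap between these extremes was far larger than the typical spread between arrays of a cow, a median SD of 0.42. The arrays of low-DTH cow 2 itself, however, had an SD of 1.40, and those of low-Ab cow 2 had 0.16.

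**Figure D1:**
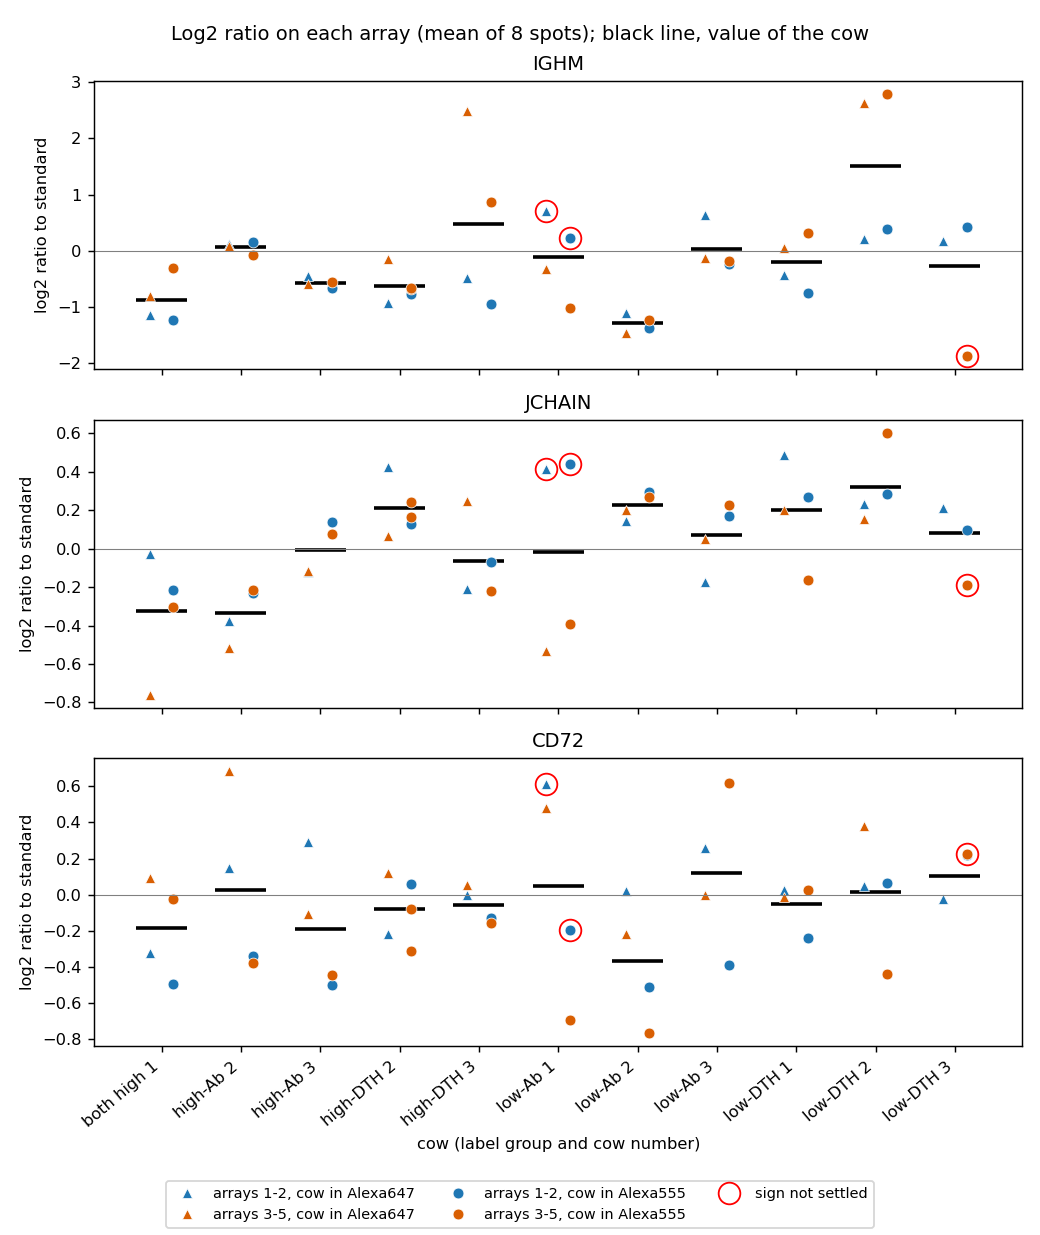
Log2 ratio to the standard (y axis) of IGHM, JCHAIN and CD72 on each array, by cow (x axis); triangles are arrays with the cow in Alexa647, circles arrays with the cow in Alexa555, colours separate arrays 1 and 2 from arrays 3 to 5, red rings mark the 3 arrays of unsettled sign, and black lines are the cow values. IGHM ranged from −1.88 to 2.79 over arrays and CD72 from −0.77 to 0.69, and the y scales differ between panels.

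The 2 extreme cows differed in how well their arrays agreed. The 4 arrays of low-Ab cow 2 gave IGHM ratios of −1.11, −1.38, −1.47 and −1.24, all far below the standard. The 4 arrays of low-DTH cow 2 gave 0.21, 0.38, 2.63 and 2.79, so all lay above the standard but the height of its mean came from arrays 3 and 4. High-DTH cow 3 had −0.49 and −0.96 on arrays 1 and 2 and then 2.49 and 0.87 on arrays 3 and 4, the widest spread of any cow (SD 1.55). Its positive mean therefore joined arrays of opposite sign.

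IGHM had the largest difference between arrays 1 and 2 and the later arrays of the same cow among all 141 named genes. The median absolute difference over the 11 cows was 0.63, against 0.15 for the median named gene, and single cows ran from −2.42 to 2.18. The same median was 0.14 for JCHAIN, at rank 78, and 0.17 for CD72, at rank 59. For IGHM the 2.18 came from low-DTH cow 3 and the next highest value, 1.15, from low-Ab cow 1. In both cows 1 side of the difference held only arrays of unsettled sign. The highest IGHM value among the other cows was 0.36, in low-Ab cow 3. The labels number the arrays and give no date or batch for them, and the part of array number in any result was not tested beyond the values given here. Within an array the IGHM spots were close together, with a median SD of 0.15 over its 8 spots, against 0.13 for all named genes. The spread of IGHM thus lay mainly between arrays and cows.

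Turning the 3 arrays moved the IGHM value of low-Ab cow 1 from −0.11 to −0.57 and that of low-DTH cow 3 from −0.28 to 0.66. Low-DTH cow 3 had 0.17 and 0.42 on arrays 1 and 2 and −1.88 on array 3, the lowest IGHM ratio of all 44 arrays as deposited. Low-Ab cow 1 had 0.71 and 0.23 on arrays 1 and 2, and −0.34 and −1.02 on arrays 3 and 4. In both cows the IGHM ratios of the arrays of unsettled sign lay on the other side of 0 from the rest. CD72 did not show this. It had 0.61 and −0.20 on arrays 1 and 2 of low-Ab cow 1, and 0.48 and −0.70 on its arrays 3 and 4. In low-DTH cow 3 it had −0.02 and 0.22 on arrays 1 and 2 and 0.23 on array 3.

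JCHAIN was below the standard in the shared cow at −0.33, in high-Ab cow 2 at −0.33, in high-Ab cow 3 at −0.0055 and in high-DTH cow 3 at −0.06. High-DTH cow 2 was the single high cow above it, at 0.21. Low-Ab cows 1, 2 and 3 had −0.02, 0.23 and 0.07, and low-DTH cows 1, 2 and 3 had 0.20, 0.32 and 0.08. JCHAIN was therefore below 0 in 4 of 5 high cows and above 0 in 5 of 6 low cows. As deposited, 3 of the 5 high cows lay below every low cow. With the 3 arrays turned, low-Ab cow 1 moved from −0.02 to −0.44, the lowest value of all, and no high cow lay below every low cow.

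The arrays of a cow agreed better for JCHAIN than for IGHM. The median SD between arrays of a cow was 0.20, near the 0.18 of all named genes. High-Ab cow 2 was below the standard on each of its 4 arrays, at −0.37, −0.23, −0.52 and −0.21. The shared cow was too, at −0.03, −0.21, −0.76 and −0.31. Low-Ab cow 2 at 0.14, 0.30, 0.20 and 0.27, low-DTH cow 2 at 0.23, 0.28, 0.15 and 0.60, and high-DTH cow 2, between 0.07 and 0.42, were above it on every array. The other 6 cows had arrays on both sides of 0. Low-Ab cow 1 had the widest spread of JCHAIN (SD 0.52), with 0.41 and 0.44 on the 2 arrays of unsettled sign and −0.53 and −0.39 on the others.

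CD72 was −0.19 in the shared cow, 0.03 in high-Ab cow 2 and −0.19 in high-Ab cow 3. High-DTH cows 2 and 3 had −0.08 and −0.06. Low-Ab cows 1, 2 and 3 had 0.05, −0.37 and 0.12, and low-DTH cows 1, 2 and 3 had −0.05, 0.01 and 0.10. Apart from low-Ab cow 2, which was also lowest for IGHM, every cow lay between −0.19 and 0.12. No cow had CD72 on the same side of 0 on all its arrays, and the median SD between arrays of a cow, 0.34, exceeded the SD of 0.15 between cows.

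The CD72 value of low-Ab cow 3 depended on few spots. On its array 4 the 8 CD72 spots had an SD of 2.17, with the highest at 5.31 and the median at 0.02. Averaging gave that array 0.62 and the cow 0.12, whereas the median of the spots gave the cow −0.05. Array 3 of high-Ab cow 2 also had an SD above 1 over its CD72 spots. No array of IGHM or JCHAIN did.

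**Figure D2:**
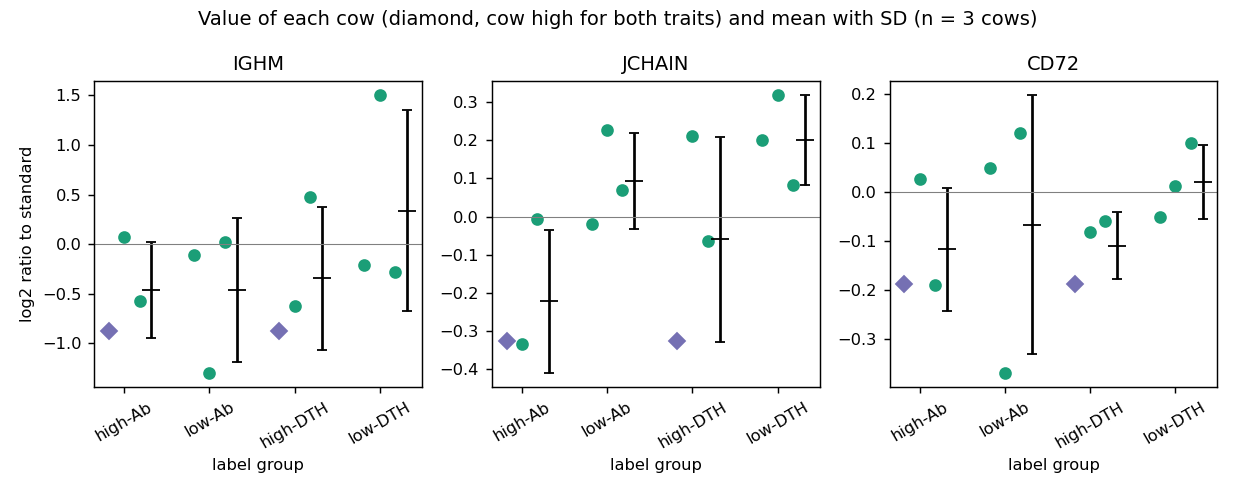
Log2 ratio to the standard (y axis) of the 3 genes in each cow by label group (x axis), with points for cows and lines for the group mean and SD; the shared cow appears in both high groups. With spots averaged, every high-DTH cow lies below every low-DTH cow for CD72, by a small gap, whereas the groups overlap for IGHM and JCHAIN.

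Cows with a high antibody response were compared with cows with a low one. IGHM averaged −0.46 ± 0.48 (SD, n = 3) in the high group and −0.46 ± 0.73 in the low group. The difference was 0.0014 ± 0.41 (SE; 95% interval −0.98 to 0.98), and its sign turned under several settings, to −0.04 after quantile normalization and −0.05 after scaling of the arrays. JCHAIN averaged −0.22 ± 0.19 in high-Ab cows against 0.09 ± 0.12 in low-Ab cows, and the means differed by −0.32 ± 0.13 (95% interval −0.63 to −0.0022). CD72 averaged −0.12 ± 0.13 and −0.07 ± 0.27, a difference of −0.05 ± 0.16 that was 0.02 with the 3 arrays turned.

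In limma no feature passed an adjusted p of 0.05 between high-Ab and low-Ab cows, 0 of 562 (0.00%), and 37 (6.58%) had an unadjusted p under 0.05. JCHAIN was among these at p = 0.0488, with an adjusted p of 0.741, and ranked 10 of 141 named genes by p. The JCHAIN values of the groups overlapped between high-Ab cow 3 and low-Ab cow 1. The two-sided exact permutation p was 0.2, where 3 against 3 cows cannot go below 0.1. The JCHAIN difference with the 3 arrays turned was −0.17 ± 0.20 (95% interval −0.65 to 0.31). The direction of JCHAIN was the same when any of the 6 cows was left out, from −0.42 to −0.25.

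Cows with a high cell-mediated response had lower mean ratios of all 3 genes than cows with a low one, with differences that did not pass the test. IGHM averaged −0.34 ± 0.72 (SD, n = 3) in high-DTH cows against 0.34 ± 1.01 in low-DTH cows. The difference of −0.68 ± 0.58 (SE; 95% interval −2.08 to 0.73) had an adjusted p of 0.769 in limma. JCHAIN averaged −0.06 ± 0.27 and 0.20 ± 0.12, a difference of −0.26 ± 0.16 with an adjusted p of 0.63 in limma. CD72 averaged −0.11 ± 0.07 and 0.02 ± 0.08, a difference of −0.13 ± 0.09 with an adjusted p of 0.681 in limma. No feature of 565 passed (0.00%), and 55 (9.73%) had an unadjusted p under 0.05, none of the 3 among them.

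IGHM in this comparison rested on single cows. Without low-DTH cow 2 the difference was −0.09, and without high-DTH cow 3 it was −1.09. With the 3 arrays turned it was −0.99 ± 0.54 (limma p = 0.119 before adjustment). On arrays 1 and 2 alone it was −0.92 and on arrays 3 to 5 alone −0.10. All of these are negative and differ widely in size. On arrays 3 to 5, low-DTH cow 3 had only its array 3, at −1.88, whose sign is not settled.

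CD72 was the member whose groups did not overlap. The highest high-DTH cow had −0.06 and the lowest low-DTH cow −0.05, so the gap between the groups was small against the array SD of 0.34. Of the 141 named genes, 10 (7.09%) had every high-DTH cow below every low-DTH cow. The exact permutation p of CD72 was 0.1, the smallest that 3 against 3 cows allow. The groups still did not overlap with the 3 arrays turned, as for 12.1% of named genes in this direction, and the difference was then −0.09. They did overlap with the median of spots, where high-DTH cow 3 had −0.031 and low-DTH cow 1 had −0.043. With cows in Alexa647 alone they overlapped too, with high-DTH cow 3 at 0.025 and low-DTH cow 1 at 0.0071.

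The high-minus-low difference of each gene was then compared between the traits. The Ab difference minus the DTH difference was 0.68 ± 0.72 for IGHM (SE; adjusted p of 0.878 in limma), −0.06 ± 0.17 for JCHAIN (adjusted p of 0.918) and 0.08 ± 0.18 for CD72 (adjusted p of 0.885). The JCHAIN value turned to 0.12 with the 3 arrays turned and to 0.01 with arrays scaled. A difference between the traits was thus not detected for any of the 3, while 7 of 561 features (1.25%) passed as deposited and 0 (0.00%) with the 3 arrays turned. At an unadjusted p under 0.05 there were 57 (10.2%), none of the 3 genes among them. The Ab and DTH comparisons share a high cow, and with all cows used it cancels out of this contrast.

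Across both traits, JCHAIN had a lower mean in high than in low responders, a difference that did not pass after adjustment. The 5 high cows averaged −0.10 ± 0.23 (SD) and the 6 low cows 0.15 ± 0.12, a difference of −0.25 ± 0.11 (SE; 95% interval −0.48 to −0.02). In limma the unadjusted p was 0.0380, the fourth smallest of the 141 named genes, and the adjusted p was 0.996. No feature of 561 passed the adjusted threshold (0.00%), and 20 (3.57%) had an unadjusted p under 0.05. With the 3 arrays turned the difference was −0.20 ± 0.15 (95% interval −0.51 to 0.12). When single cows were left out it ran from −0.33 to −0.19.

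For IGHM and CD72 no such difference was detected across both traits. IGHM averaged −0.31 ± 0.56 in the 5 high cows against −0.06 ± 0.90 in the 6 low cows, and the means differed by −0.24 ± 0.42 with an exact permutation p of 0.641. Without low-DTH cow 2 it was 0.07, so its direction rested on that cow. CD72 averaged −0.10 ± 0.09 and −0.02 ± 0.18, a difference of −0.08 ± 0.09 with an exact permutation p of 0.433. The 95% interval was −1.15 to 0.67 for IGHM and −0.28 to 0.13 for CD72, so a decrease of a full log2 unit lay inside the interval of IGHM and an increase of that size outside it, and both lay outside that of CD72.

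**Figure D3:**
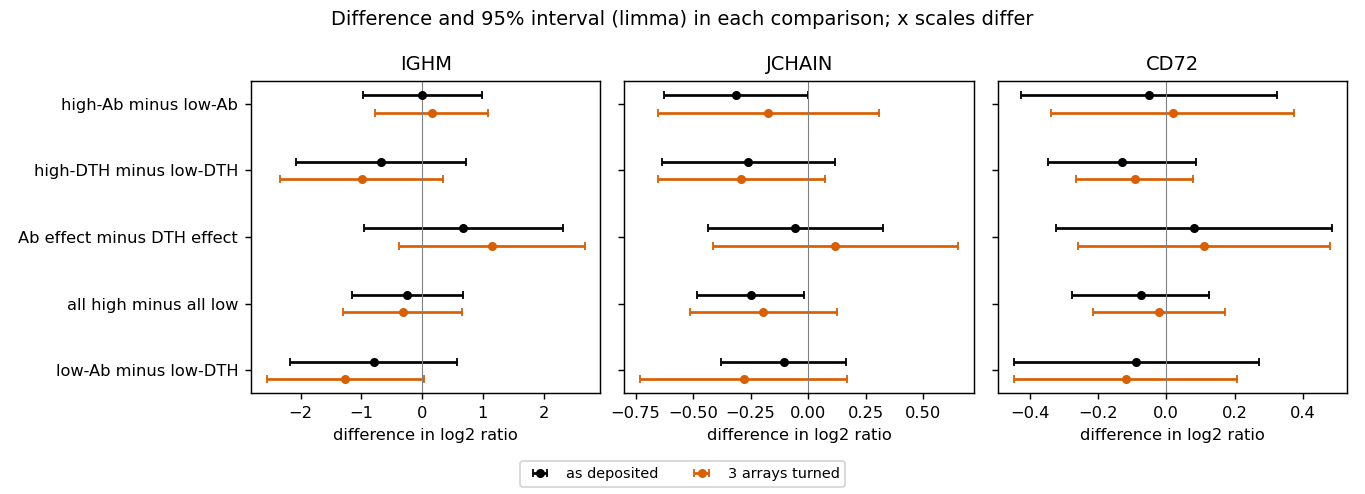
Differences in log2 ratio (x axis) of the 3 genes in 5 comparisons (y axis), with 95% limma intervals, as deposited (black) and with 3 arrays turned (orange); x scales differ between panels. As deposited, the intervals of JCHAIN exclude 0 in the Ab comparison (−0.63 to −0.0022) and for all cows (−0.48 to −0.02), and none of the intervals with turned arrays does so for any of the 3 genes.

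The low responders of the traits were also set against each other. IGHM was lower in low-Ab than in low-DTH cows by −0.80 ± 0.57 on the log2 scale (adjusted p of 0.878 in limma), with low-Ab cow 2 and low-DTH cow 2 at opposite ends. With the 3 arrays turned this became −1.27 ± 0.52 (unadjusted p of 0.0531, adjusted p of 0.252 in limma), in a fit where 20.6% of features had an unadjusted p under 0.05. Leaving out single cows moved it between −1.11 and −0.21. The differences of JCHAIN, −0.11 ± 0.11, and CD72, −0.09 ± 0.15, were close to or below their errors. Turning the 3 arrays gave −0.28 ± 0.18 for JCHAIN (adjusted p of 0.417 in limma) and −0.12 ± 0.13 for CD72 (adjusted p of 0.616). In limma 0 of 564 features passed the adjusted threshold (0.00%), against 45 (7.98%) at an unadjusted p below 0.05.

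The 3 pairs were compared over the 11 cow values, which share the standard and the arrays. IGHM and CD72 had a Pearson r of 0.62 (permutation p = 0.0460, adjusted over 3 pairs 0.138) and a Spearman rho of 0.61 (permutation p = 0.0522, adjusted 0.157). Without low-DTH cow 2 and low-Ab cow 2, the cows farthest from the median of IGHM, r was 0.57. Turning the 3 arrays gave r = 0.72 (permutation p = 0.0126, adjusted 0.0377). It was 0.83 from arrays 1 and 2 alone and 0.08 from arrays 3 to 5 alone, so as deposited its size differed between the array sets. Low-Ab cow 1 had only arrays of unsettled sign among arrays 1 and 2. Low-DTH cow 3 had only such an array among arrays 3 to 5. The part of these arrays in the contrast was not tested. With the cow in Alexa647 alone r was 0.45, and with the cow in Alexa555 alone it was 0.20.

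No relation of JCHAIN to either of the other genes was detected over the cows. With IGHM it had r = 0.18 (permutation p = 0.592, adjusted 0.887) and rho = −0.15 (permutation p = 0.670, adjusted 0.713). With CD72 it had r = −0.04 (permutation p = 0.899, adjusted 0.899) and rho = −0.13 (permutation p = 0.713, adjusted 0.713). For IGHM and JCHAIN r was −0.00025 without low-DTH cow 2 and low-Ab cow 2. For JCHAIN and CD72 it was −0.21 without high-Ab cow 2 and the shared cow, the farthest from the median of JCHAIN. Single cows went both ways. Low-Ab cow 2 had the lowest IGHM and CD72 of all cows and the second highest JCHAIN. Low-DTH cow 2 had the highest IGHM and the highest JCHAIN, and the shared cow was below the standard for all 3 genes.

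**Figure D4:**
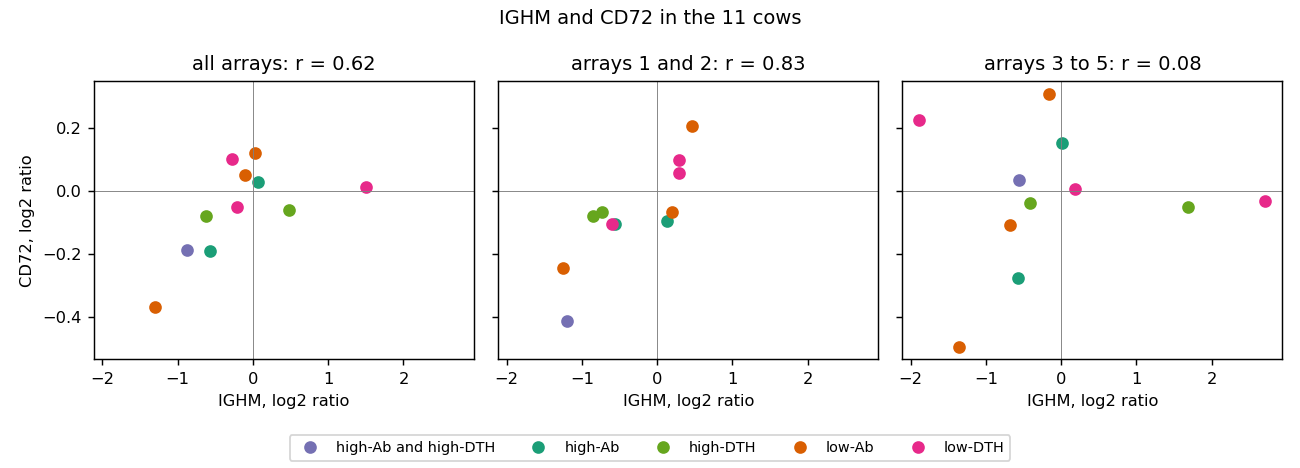
CD72 (y axis) against IGHM (x axis) as log2 ratios to the standard in the 11 cows, coloured by label group, from all arrays, from arrays 1 and 2, and from arrays 3 to 5. Pearson's r is 0.62, 0.83 and 0.08 in the 3 panels. The point of low-Ab cow 1 for arrays 1 and 2 rests only on arrays of unsettled sign. So does that of low-DTH cow 3 for arrays 3 to 5.

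Among the other 140 named genes, the most like JCHAIN over the cows was IGCGAMMA, the constant region of the IgG heavy chain, with r = 0.67 and rho = 0.73. The value was 0.71 without the shared cow and high-Ab cow 2, and 0.80 with the 3 arrays turned. FCGRT, the neonatal Fc receptor chain that carries IgG, followed with r = 0.63, and FCGR3A, a low-affinity receptor for IgG, with r = 0.56. These were 0.35 and 0.14 without the same cows, and 0.47 and 0.36 with the 3 arrays turned. The most opposite were IL18 with r = −0.72 and LOC617313 with r = −0.65. They were −0.33 and −0.56 without those cows, and −0.41 and −0.38 with the 3 arrays turned. The median over the 140 genes was 0.03.

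IGHM was most like ACTB, which encodes beta actin, with r = 0.86, then PSMB8, an immunoproteasome subunit, with r = 0.80, and CD40, a receptor of B cells for T cell help, with r = 0.79. Without low-DTH cow 2 and low-Ab cow 2 these were 0.41, 0.44 and 0.50. IGF1 at −0.72 and CD40LG, the ligand of CD40, at −0.71 were the most opposite, and were −0.63 and −0.24 without those cows. CD72 was most like NFATC3 with r = 0.63, IL12RB1 with r = 0.62 and IGHM with r = 0.62, and most opposite to NOD2 with r = −0.72 and CCL5 with r = −0.69. In that order they were 0.53, 0.44, 0.46, −0.41 and −0.49 without low-Ab cows 2 and 3. With the 3 arrays turned they were 0.46, 0.66, 0.72, −0.69 and −0.62. The genes named here were picked as the extremes of 140 values each over 11 cows and are given as descriptions.

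Of a list of 24 B cell genes, matched by symbol, CD40 was the only other measured gene. It had −0.37 in the shared cow, −0.19 and −0.13 in high-DTH cows 2 and 3, and −0.05, 0.27 and −0.01 in low-DTH cows 1, 2 and 3. The groups did not overlap, as for 7.09% of named genes in this direction, and the difference was −0.30 ± 0.12 (adjusted p of 0.505 in limma). All 4 measured B cell genes had a negative DTH difference, with a median of −0.28 against −0.03 over all named genes, of which 85 of 141 (60.3%) were negative. In the Ab comparison 3 of 4 were negative (54.6% of named genes) with a median of −0.04, and 1 of 4 with the 3 arrays turned (51.8% of named genes). Over all cows 4 of 4 were negative (58.9% of named genes), with a median of −0.18, and none passed in any comparison. IGCGAMMA, of the IgG heavy chain, was not counted, because the list names an IgG heavy chain by the symbol IGHG1.

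Other genes of the antibody system were described by lists, none of whose members passed in the Ab, DTH or all-cow comparison. Of 15 signals that act on B cells, 12 were measured, among them IL4, IL5, IL6, IL10 and CD40LG, with median differences of −0.04 for Ab, 0.0088 for DTH and −0.02 over all cows. Of 10 receptors that bind or carry immunoglobulin, 5 were measured. For Ab 4 of 5 were negative (54.6% of named genes), for DTH 4 of 5 (60.3%) and over all cows 5 of 5 (58.9%). Their medians were −0.23, −0.21 and −0.11, where those over all named genes were −0.0089, −0.03 and −0.01. Of 13 genes of MHC class II, which B cells and monocytes use to present antigen, 3 were measured, with medians of −0.21, −0.33 and −0.17. Among them BOLA-DRB3 was positive for Ab, at 0.11. IGCGAMMA and IGIP, an inducer of IgA production, were added after their values were seen. IGCGAMMA differed by −0.28 ± 0.21 for Ab, −0.23 ± 0.25 for DTH and −0.28 ± 0.20 over all cows. IGIP differed by 0.16, −0.17 and 0.0043.

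Of 10 listed T cell markers, 7 were measured, and 0 passed adjustment in limma in the Ab, DTH or all-cow comparison. At an unadjusted p under 0.05 there were 3 for Ab (6.58% of all features), 2 for DTH (9.73%) and 4 for all cows (3.57%), and 2 for all cows with the 3 arrays turned (4.10%). Over all cows 5 of the 7 had a higher and 2, CD27 and CD28, a lower mean in high cows. The mean log2 ratio of the 7 lay between 0.33 and 0.63 in the 5 high cows and between −0.04 and 0.38 in the 6 low cows. The 3 measured of 8 monocyte markers lay between −0.33 and −0.00088 in high and between −0.46 and −0.01 in low cows. The 2 measured of 7 neutrophil markers lay between −0.83 and 0.16 in high and between −0.16 and 0.67 in low cows, and the 2 of 5 for natural killer cells between −0.25 and 0.49 and between −0.09 and 0.72. CD163L1, the marker of gamma delta T cells, ran from −0.34 to 0.98 in high and from −0.71 to 0.71 in low cows. None of 4 platelet and red cell markers was measured. Ratios do not show which of these markers were near 0 in level, and the part of cell makeup in the JCHAIN difference was not tested.

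The dye orientations of each cow were also compared, and none of the 3 genes passed the adjusted threshold in limma. Over the 11 cows CD72 averaged 0.10 with the cow in Alexa647 and −0.22 with the cow in Alexa555. The difference of 0.32 ± 0.10 (SE; adjusted p of 0.0555 in limma, two-sided exact sign-flip permutation p = 0.0166) was positive in 10 of 11 cows. It was larger than any difference of CD72 between label groups. IGHM differed by 0.27 ± 0.11 (adjusted p of 0.124 in limma), positive in 9 of 11 cows. The 3 arrays of unsettled sign were kept as deposited here, and the dye comparison was not run with them turned. For IGHM they enter the differences of low-DTH cow 3, 0.90, and low-Ab cow 1, 0.58. High-DTH cow 3, without such arrays, had 1.04. For CD72 the same arrays enter −0.25 in low-DTH cow 3 and 0.99 in low-Ab cow 1. JCHAIN differed by −0.05 ± 0.06 (adjusted p of 0.63 in limma), positive in 4 of 11. Of 561 features, 68 (12.1%) passed this test, among them CD40 at 0.25 ± 0.06. Both orientations were given equal weight in every cow value, so a constant dye shift cancels from the comparisons.

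**Figure D5:**
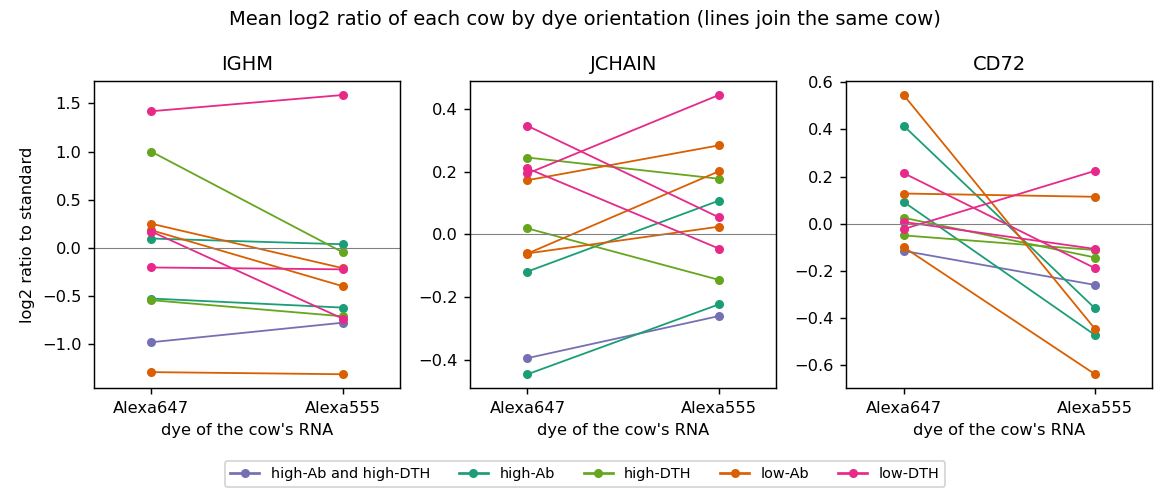
Mean log2 ratio (y axis) of each cow with its RNA in Alexa647 or Alexa555 (x axis) for the 3 genes, with a line for each of the 11 cows coloured by label group; y scales differ. CD72 is lower in Alexa555 than in Alexa647 in 10 of 11 cows, and JCHAIN has no common direction.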

How the data were processed

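Values are 1 log ratio per spot and array, as deposited by the authors and read here as log2. The sources used here do not give their log base, direction, scanner or normalization. The array medians lay from −0.08 to 0.07, and whether arrays were centred is not stated. Arrays of opposite dye were taken as already turned to the same direction.

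Of 1680 spots, 1224 have 1 gene symbol, 16 have several and 440 have none, per the platform annotation. Of the 141 named genes, 137 matched the bovine RefSeq table of assembly ARS-UCD2.0 by identifier and symbol. The spots of a gene were averaged, then the arrays of a cow within each dye orientation, then both orientations. Spots without a single symbol were tested singly and vapA was set aside.

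Comparisons used limma 3.58.1 (R 4.3.3), with lmFit and eBayes over 561 to 565 features with a value in every orientation of each cow, with Benjamini-Hochberg adjustment over all of them at 0.05. Two-sided exact permutation tests over cows were added, and correlations used 100000 resamples. The fit was tested on simulated data. Named are the 3 genes, other measured B cell genes, and per gene the 3 most and 2 least correlated genes, beside markers of other cells. The genes and lists were chosen with earlier results of these data known. Alternatives changed the sign or use of 3 arrays, averaging, normalization, dye, array set, features tested, cow left out and cow number as block.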

Additional observations from a re-analysis of the deposited data

Results flagged for a closer look

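IGHM on array 1 of low-Ab cow 3 had a log2 ratio of 0.64, far above the nearest of the other 3 arrays of that cow at −0.14. CD72 in low-Ab cow 2, at −0.37, lay far below the nearest of the other 5 low cows at −0.05. CD72 on array 2 of low-DTH cow 1, at −0.24, lay far below the nearest of its other arrays at −0.01. Each was picked because its gap to the nearest value exceeded the critical value of Dixon's test at the 95% level. Of 36 groups of arrays or cows tested this way, 3 were picked, and chance alone picks about 5% of groups. The reason for these gaps was not tested.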

How the results depend on the processing

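JCHAIN kept a negative high-minus-low difference for Ab, DTH and all cows under every alternative run, and so did IGHM and CD72 for DTH and CD72 for all cows. The Ab difference of IGHM, near 0, was −0.034 from the median of spots, −0.038 after quantile normalization, −0.046 after scaling, −0.18 with cows in Alexa647 alone and −0.35 on arrays 1 and 2. The Ab difference of CD72 was 0.019 with 3 arrays turned, 0.0022 without them and 0.069 on arrays 3 to 5. For the difference between traits, JCHAIN was 0.12 with 3 arrays turned, 0.12 without them and 0.011 after scaling. IGHM over all cows was 0.22 on arrays 3 to 5. In that set low-DTH cow 3 had only an array of unsettled sign, and on arrays 1 and 2 low-Ab cow 1 had only such arrays. Between the low groups, CD72 was 0.13 in Alexa647 alone and JCHAIN 0.019 in Alexa555 alone. The correlation of JCHAIN and CD72 was 0.080 with 3 arrays turned, 0.060 without them, 0.033 after scaling and 0.45 on arrays 1 and 2. That of IGHM and CD72 passed an adjusted 0.05 at 0.72 with 3 arrays turned, 0.71 without them, 0.77 after quantile normalization, 0.74 after scaling and 0.83 on arrays 1 and 2, and was 0.45 in Alexa647 alone, 0.20 in Alexa555 alone and 0.079 on arrays 3 to 5. Features called between traits numbered 7 as deposited, 4 with a plain mean of arrays and 2 with named genes only. They numbered 0 with 3 arrays turned or left out, after quantile normalization or scaling, in either dye and in either array set. Between the low groups the count was 0, against 1 with a plain mean, 2 after scaling and 2 with named genes only. The cause of these changes was not tested.

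Leaving out 1 cow at a time gave ranges of −0.42 to 0.24 for IGHM, −0.42 to −0.25 for JCHAIN and −0.20 to 0.043 for CD72 in the Ab comparison. The ranges were −1.09 to −0.09, −0.40 to −0.13 and −0.17 to −0.09 for DTH. Between the traits they were 0.10 to 1.09, −0.16 to 0.080 and −0.072 to 0.17. Where a further high-Ab or high-DTH cow was left out, the shared cow did not fully cancel from that contrast. Over all cows they were −0.49 to 0.070, −0.33 to −0.19 and −0.14 to −0.05. Between the low groups they were −1.11 to −0.21, −0.17 to −0.05 and −0.18 to 0.064. Features called ran from 0 to 1 for Ab (1 without the shared cow) and from 0 to 7 between traits. The correlations ran from −0.25 to 0.41 for IGHM and JCHAIN, from 0.43 to 0.77 for IGHM and CD72 (past an adjusted 0.05 without low-DTH cow 2) and from −0.26 to 0.25 for JCHAIN and CD72.

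Cows of the same number did not deviate together throughout, with correlations from −0.59 to −0.23 for DTH, from −0.27 to −0.01 for Ab and from −0.11 to 0.36 between the low groups. With so few cows, these values do not decide whether the number pairs cows. With the replicate block, 0 features were called for Ab, DTH and the low groups, and IGHM for DTH was −0.68 ± 0.60. Signal over background is unknown, so no limit from it can be given.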
